A study of Mus musculus with 9 samples.

Results

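Serotonin receptor mRNA on ribosomes of D1 medium spiny neurons (MSNs) is described here for 9 genes, Htr1b, Htr1d, Htr1f, Htr2a, Htr2c, Htr4, Htr5a, Htr6 and Htr7. They were chosen by symbol from a list of the receptor family and matched to the Ensembl identifiers of the deposited tables. They are 9 of 47729 identifiers, and all 9 were among the 13695 genes with at least 1 CPM (the read count of a gene relative to its library's total) in at least 3 libraries, which were the genes tested. Dorsal striatum was taken from C57BL/6 mice at postnatal day 28, polyribosomes carrying a hemagglutinin-tagged ribosomal protein (RiboTag) were precipitated, and their RNA was sequenced. All 3 groups carried D1-Cre, in which Cre is driven by the D1 dopamine receptor gene, and the RiboTag allele. The control group (3 libraries) was labelled D1-Cre-RT. Both other groups (3 libraries each) were labelled D1-Cre-flTrkB-RT, with a floxed allele of Ntrk2, the gene of the neurotrophin receptor TrkB, and were divided by whether the mice showed stereotypy, that is spontaneous repetitive behavior. The labels call the libraries of a group biological triplicates and give no batch, no sex and no pool size. No library of unprecipitated RNA was analysed here, and how strongly D1 MSN RNA was enriched is therefore unknown.

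Serotonin reaches the striatum in axons of raphe neurons and acts there through receptors of several classes. Htr1b, Htr1d, Htr1f and Htr5a encode receptors coupled to Gi/o proteins, which lower cyclic AMP and open GIRK potassium channels. Htr2a and Htr2c encode Gq-coupled receptors, which act through phospholipase C beta, and Htr4, Htr6 and Htr7 encode Gs-coupled receptors, which raise cyclic AMP. In MSNs the Htr1b receptor is carried to axon terminals, where it restrains transmitter release.

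The libraries held 27103152 to 40578512 reads. Ntrk2 stood at 319 to 487 CPM in the control libraries, at 34.3 to 43.9 CPM with stereotypy and at 14.1 to 23.4 CPM without, and it was called lower in both deleted groups. Drd1, the D1 receptor gene and the most abundant of the 9 D1 MSN markers, was present at 515 to 955 CPM in every library. Summed markers of other neurons differed between libraries. The 5 D2 MSN markers found summed to 443 to 1433 CPM in control libraries, 259 to 424 CPM with stereotypy and 597 to 1050 CPM without. The 7 cortical excitatory markers summed to 271 to 850 CPM, 156 to 282 CPM and 581 to 1426 CPM in the same order. Both sums were highest in replicate 3 of the control group and of the group without stereotypy. The 11 astrocyte markers summed to 453 to 559 CPM in control libraries, 642 to 668 CPM with stereotypy and 451 to 564 CPM without. Microglia markers (10) summed to 17.5 to 34.7, 38.9 to 48.0 and 22.6 to 29.8 CPM in that order of groups, and vascular markers (11) to 21.4 to 45.1, 41.2 to 98.0 and 16.2 to 29.9 CPM. All 4 monoaminergic neuron markers were below 1 CPM in every library, and En1 was listed at 0.

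**Figure D1:**
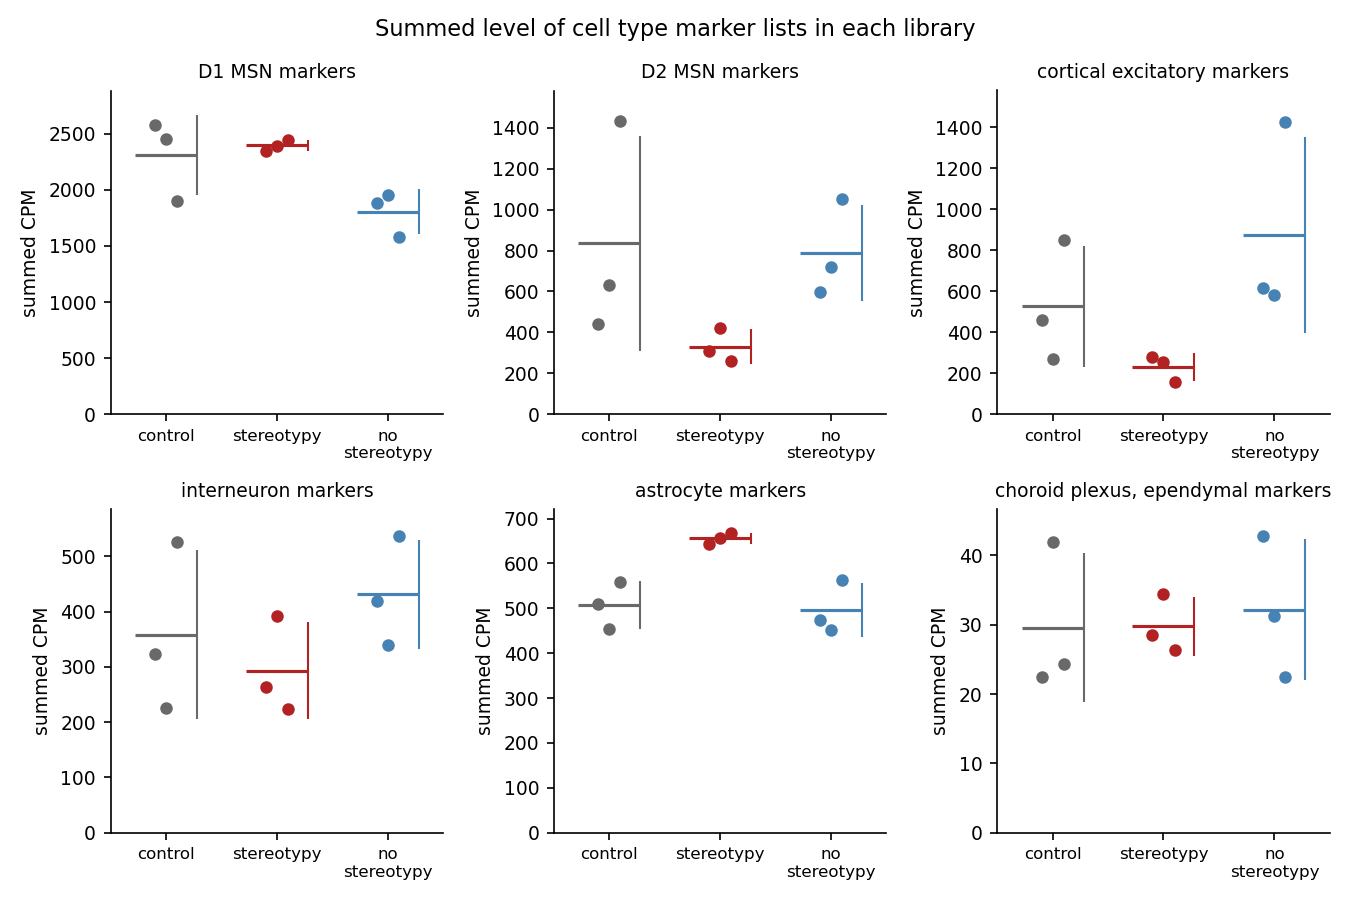
Summed CPM of 6 cell type marker lists in each library, by group (points are libraries, horizontal lines are means of 3, vertical lines are 1 SD). D2 MSN and cortical excitatory markers were lowest with stereotypy and highest in replicate 3 of each other group, and D1 MSN markers were between 1580 and 1954 CPM without stereotypy.

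Htr1b and Htr2c, the most abundant members by CPM, were lower in the mice without stereotypy than in both other groups, and no receptor gene passed the test between mice with stereotypy and controls. Htr1b fell to 62.2% of the control mean and Htr2c to 71.7%. No Gs-coupled receptor passed the test in any comparison. Of the 9 members, 2 were called lower and none higher without stereotypy against control, where 6.77% of all tested genes were called (3.01% lower). Between stereotypy and no stereotypy, 2 of 9 were called higher with stereotypy, where 10.2% of all genes were called (6.61% higher). These comparisons share the 3 libraries without stereotypy, so the second pair of calls is no separate evidence of the first. Between stereotypy and control 0 of 9 members were called, against 5.1% of all genes. Limma gave 2 members an unadjusted p under 0.05 there, and edgeR and DESeq2 called none. With both deleted groups combined against control 0 of 9 were called, against 5.72% of all genes, with 3 members at an unadjusted p under 0.05 in limma and 0 calls by edgeR or DESeq2. A call is an adjusted p below 0.05 in limma on log2(CPM + 1), Benjamini-Hochberg over all tested genes. That scale understates changes of genes near 1 CPM, which include Htr1f, Htr4 and Htr7. The labels do not say whether a library is 1 animal or a pool, so the p-values measure the spread between these libraries.

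**Figure D2:**
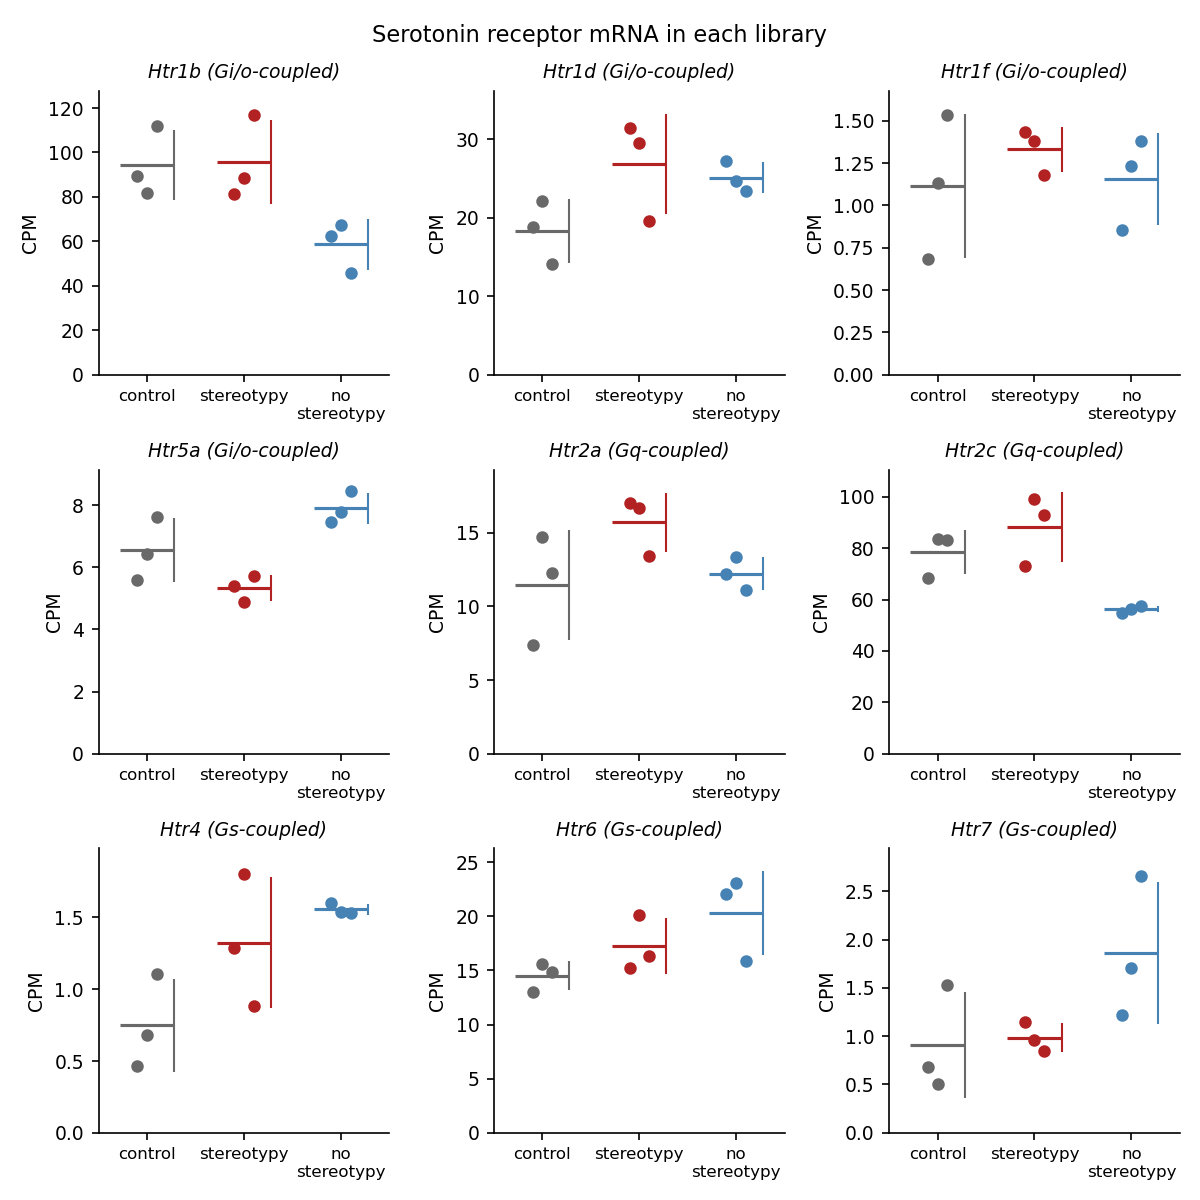
CPM of each serotonin receptor gene in each library, with G protein coupling in the panel title (points are libraries, horizontal lines are means of 3, vertical lines are 1 SD, each axis starts at 0). Htr1b and Htr2c lie lower in all 3 libraries without stereotypy than in the other 6 libraries.

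Htr1b (ENSMUSG00000049511, GRCm38 chromosome 9, 81628291 to 81633828, minus strand) stood at 89.4, 81.7 and 112 CPM in the 3 controls. It stood at 81.3, 88.4 and 117 CPM with stereotypy and at 62.6, 67.5 and 45.7 CPM without. The group means were 94.3 ± 15.6 CPM, 95.6 ± 18.9 CPM and 58.6 ± 11.4 CPM (SD, n = 3 each). All 3 libraries without stereotypy lay below the other 6, while controls and stereotypy libraries covered nearly the same range. The log2 difference was -0.68 without stereotypy against control (SE 0.18, adjusted p = 0.0444 in limma) and 0.70 for stereotypy against no stereotypy (SE 0.18, adjusted p = 0.0358). Between stereotypy and control it was 0.01, with a 95% interval of -0.38 to 0.40 (adjusted p = 0.970).

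The Htr1b call without stereotypy against control is close to the threshold. It was lost when any 1 of 7 libraries was left out and held without control replicate 2 or stereotypy replicate 3, with a log2 difference of -0.79 to -0.52 and an adjusted p of 0.0378 to 0.101. Calls over all genes in that comparison, 927, ranged from 317 to 935 with 1 library left out. At 935, without control replicate 3, no receptor was called. Htr1b shares 852 bp of its 4724 bp of exon with D430036J16Rik, an antisense gene on the plus strand, and the authors' use of strand is not given in the sources used here. D430036J16Rik itself was listed at 7.55, 12.9 and 8.92 CPM in the controls, 10.7, 15.2 and 14.2 CPM with stereotypy and 8.40, 9.24 and 7.91 CPM without, and limma called it in none of the comparisons. For stereotypy against no stereotypy its log2 difference was 0.58, the direction of Htr1b (adjusted p = 0.0737), and it was called by DESeq2, in a fit to the groups compared only and without control replicate 2 (adjusted p 0.0325 to 0.0404).

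Htr2c (ENSMUSG00000041380, GRCm38 chromosome X, 146962513 to 147197277, plus strand) stood at 68.6, 83.7 and 83.3 CPM in the controls. It stood at 73.0, 99.1 and 93.0 CPM with stereotypy and at 54.9, 56.5 and 57.5 CPM without. The group means were 78.5 ± 8.64 CPM, 88.4 ± 13.6 CPM and 56.3 ± 1.32 CPM (SD, n = 3 each). The 3 libraries without stereotypy were within a few CPM of each other and below the other 6, and the other groups overlapped. The log2 difference was -0.47 without stereotypy against control (SE 0.12, adjusted p = 0.0480 in limma) and 0.63 for stereotypy against no stereotypy (SE 0.12, adjusted p = 0.0225). Between stereotypy and control it was 0.16, with a 95% interval of -0.11 to 0.43 (adjusted p = 0.450).

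The call against control was lost when any 1 of 7 libraries was left out (log2 difference -0.56 to -0.42, adjusted p 0.0275 to 0.159) and held without control replicate 1 or stereotypy replicate 1. Choroid plexus expresses Htr2c strongly. Ttr, its defining transcript, was at 11.2 CPM in replicate 1 without stereotypy and at most 1.32 CPM in the other 8 libraries, and Htr2c in that library was 54.9 CPM, the lowest of the 9. The 6 choroid plexus and ependymal markers summed to 22.5 to 41.9 CPM in the controls. They summed to 26.3 to 34.5 CPM with stereotypy and 22.5 to 42.8 CPM without. The highest sums of the groups were in control replicate 2, stereotypy replicate 2 and replicate 1 without stereotypy. Htr2c was the highest of its group in both replicates 2 and the lowest in that replicate 1. The part of choroid plexus RNA in Htr2c was not tested.

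For stereotypy against no stereotypy, the Htr1b call was lost without stereotypy replicate 2 or 3 or any library without stereotypy (log2 difference 0.53 to 0.81 with each of the 9 libraries left out in turn, adjusted p 0.0277 to 0.133). The Htr2c call was lost without stereotypy replicate 2 or 3 or without replicate 1 or 2 of the group without stereotypy (0.54 to 0.76, adjusted p 0.0164 to 0.0891). The number of calls over all genes in this comparison, 1398, fell to 0 or 1 without the libraries whose removal ended the Htr2c call, so those losses came with a loss of nearly all calls. Without replicate 3 of the group without stereotypy, where Htr1b lost its call (adjusted p = 0.0718 in limma), 1197 genes stayed called. A covariate of other-neuron markers left the differences at 0.69 for Htr1b (adjusted p = 0.125) and 0.67 for Htr2c (adjusted p = 0.0755), with 0 genes called in all for this comparison, and one of glial and vascular markers left 0.89 (adjusted p = 0.0943) and 0.63 (adjusted p = 0.106). Both covariates, means of centred log2 levels, separated these groups without overlap. Other-neuron markers stood at -0.90 to -0.45 with stereotypy and 0.23 to 1.02 without. Glial and vascular markers stood at 0.16 to 0.56 and -0.42 to 0.07, and at -0.45 to -0.13 in the controls. For no gene can these fits tell marker level from group between the deleted groups. Without stereotypy against control, the glial and vascular covariate also ended both calls (-0.61, adjusted p = 0.107, for Htr1b and -0.47, adjusted p = 0.101, for Htr2c). The other-neuron covariate kept them (adjusted p = 0.0475 and 0.0472).

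The bases just upstream of the annotated starts of Htr1b and Htr2c are shown because these genes were the receptors called. They are the 250 bases before the RefSeq start on GRCm38.p6, 5′ to 3′ on the strand of the gene, chr9:81633833-81634082 (minus) and chrX:146962263-146962512 (plus). Capitals mark CCAAT box letters (CCAAT, or ATTGG on the other strand) and, in Htr2c, a match to a loose AP-1 pattern (TGANTCA, the same on both strands). That pattern allows any central base. The AP-1 consensus has C or G there, and the stretch in Htr2c has A.
Htr1b: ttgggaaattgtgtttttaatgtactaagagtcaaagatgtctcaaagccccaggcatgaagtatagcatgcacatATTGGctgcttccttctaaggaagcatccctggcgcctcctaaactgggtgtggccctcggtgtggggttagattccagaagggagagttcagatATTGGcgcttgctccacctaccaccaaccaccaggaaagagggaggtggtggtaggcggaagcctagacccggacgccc
Htr2c: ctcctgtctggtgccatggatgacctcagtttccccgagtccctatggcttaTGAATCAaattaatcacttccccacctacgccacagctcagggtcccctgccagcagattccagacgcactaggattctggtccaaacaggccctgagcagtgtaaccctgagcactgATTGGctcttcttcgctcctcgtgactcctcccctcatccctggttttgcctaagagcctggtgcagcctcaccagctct

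Both windows held ATTGG close to the same distance from the start, 79 to 75 bases before it in Htr1b and 80 to 76 bases before it in Htr2c, and Htr1b held a further match 174 to 170 bases before it. CCAAT box letters were in 33.8% of the 32851 promoter windows of the same length, so the match is common, and this motif was searched after the sequences had been seen. Of the 8 members with a promoter entry, Htr1d also held it. The loose AP-1 pattern was in 6.75% of all windows and, among the members, in Htr2c, 198 to 192 bases before the start. The half-site of the cAMP response element (TGACG or CGTCA, 17.8% of windows) was in Htr7, and the GC box (GGGCGG or CCGCCC, 32.7%) in Htr1d, Htr2a and Htr6. The TATA box letters (TATAAA or TTTATA, 12.4%) were in none. These are letter matches, not binding sites.

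The other Gi/o-coupled members did not follow Htr1b. Htr1d (ENSMUSG00000070687, chromosome 4, 136423524 to 136444398, plus strand), whose receptor like that of Htr1b can sit on axon terminals, stood at 18.8, 22.1 and 14.0 CPM in the controls. It stood at 31.4, 29.4 and 19.5 CPM with stereotypy and at 27.2, 24.7 and 23.4 CPM without. Libraries without stereotypy lay above the controls, and those with stereotypy overlapped them through replicate 3. The log2 difference was 0.45 without stereotypy (SE 0.19, adjusted p = 0.197 in limma), 0.52 with stereotypy (SE 0.19, adjusted p = 0.135) and 0.49 for both deleted groups (SE 0.17, adjusted p = 0.127), and no call was made.

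Htr5a (ENSMUSG00000039106, chromosome 5, 27842149 to 27855088, plus strand) stood at 5.58, 6.42 and 7.63 CPM in the controls, 5.41, 4.88 and 5.72 CPM with stereotypy and 7.47, 7.79 and 8.45 CPM without. The deleted groups did not overlap each other, and the controls spanned the gap between them. The log2 difference for stereotypy against no stereotypy was -0.49 (SE 0.14, adjusted p = 0.0536 in limma), which missed the threshold. It was called by DESeq2 (adjusted p = 0.0221), after quantile normalization (0.0396), in a fit to the groups compared only (0.0401) and without control replicate 2 (0.0493) or 3 (0.0440), and edgeR did not call it (0.0540). Htr5a was highest in replicate 3 of the control group and of the group without stereotypy, where D2 MSN and cortical markers were also highest. A covariate for other-neuron markers in the fit gave -0.32 (adjusted p = 0.318). Htr1f (ENSMUSG00000050783, chromosome 16, 64924729 to 65105854, minus strand) ranged from 0.68 to 1.53 CPM over the 9 libraries, or 25 to 56 reads, with overlap between all groups.

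Htr2a, the second Gq-coupled member (ENSMUSG00000034997, chromosome 14, 74640840 to 74709494, plus strand), stood at 7.36, 14.7 and 12.3 CPM in the controls. It stood at 17.0, 16.7 and 13.4 CPM with stereotypy and at 12.2, 13.4 and 11.1 CPM without. The stereotypy libraries were above those without stereotypy by a narrow gap and overlapped the controls, among which replicate 1 was low. The log2 difference was 0.46 with stereotypy against control (SE 0.21, adjusted p = 0.205 in limma) and 0.33 for stereotypy against no stereotypy (SE 0.21, adjusted p = 0.310).

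Of the Gs-coupled members, Htr6 (ENSMUSG00000028747, chromosome 4, 139061108 to 139075570, minus strand), whose receptor is found in primary cilia of striatal neurons, was the most abundant. It stood at 13.0, 15.6 and 14.9 CPM in the controls, 15.2, 20.1 and 16.3 CPM with stereotypy and 22.1, 23.0 and 15.9 CPM without. The libraries without stereotypy were all above the controls, replicate 3 by a narrow margin. The log2 difference without stereotypy against control was 0.45 (SE 0.16, adjusted p = 0.132 in limma), and without replicate 3 of the group without stereotypy it was 0.61 and was called (adjusted p = 0.0426).

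Htr4 (ENSMUSG00000026322, chromosome 18, 62324204 to 62496577, plus strand) stood at 0.47, 0.68 and 1.10 CPM in the controls, 1.29, 1.80 and 0.89 CPM with stereotypy and 1.60, 1.54 and 1.53 CPM without. These levels rest on 17 to 62 reads per library. Libraries without stereotypy were above the controls, and the log2 difference was 0.56 (SE 0.20, adjusted p = 0.122 in limma).

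Htr7 (ENSMUSG00000024798, chromosome 19, 35958734 to 36057507, minus strand) stood at 0.68, 0.51 and 1.53 CPM in the controls, 1.15, 0.96 and 0.85 CPM with stereotypy and 1.21, 1.71 and 2.66 CPM without, from 18 to 108 reads per library. As for Htr5a, the highest control and the highest library without stereotypy were the replicates 3 in which other-neuron markers were highest. The log2 difference for stereotypy against no stereotypy was -0.50 (adjusted p = 0.188 in limma) and 0.10 once other-neuron markers entered the fit as a covariate (adjusted p = 0.818).

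**Figure D3:**
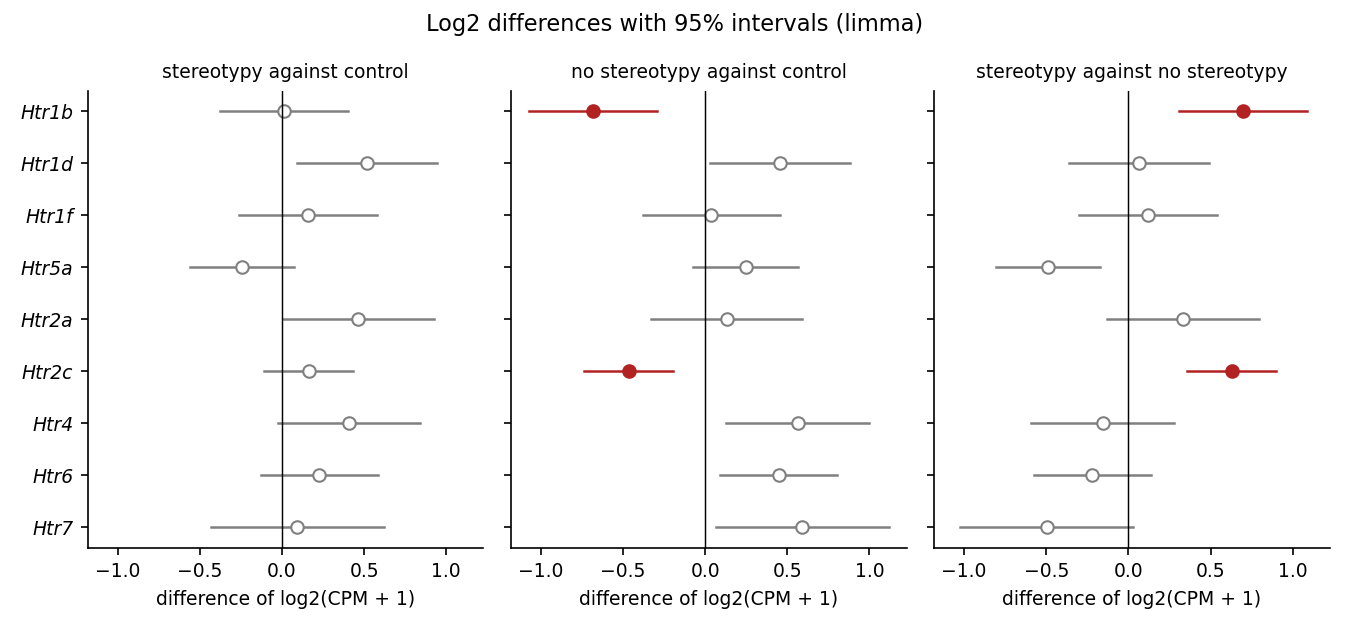
Difference of log2(CPM + 1) for each receptor gene in the 3 pairwise comparisons, with 95% intervals from the limma fit (filled red points passed the adjusted p threshold of 0.05, open grey points did not). Htr1b and Htr2c are the called members, at -0.68 and -0.47 without stereotypy against control and at 0.70 and 0.63 for stereotypy against no stereotypy.

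Counting groups whose libraries did not overlap gave more members than the test did. Without stereotypy against control, Htr1d, Htr4 and Htr6 were higher in every library (14.9% of all tested genes were) and Htr1b and Htr2c lower in every library (10.6%). For stereotypy against no stereotypy, Htr1b, Htr2a and Htr2c were higher (20.8%) and Htr5a and Htr7 lower (17.5%). Between stereotypy and control all 9 members overlapped, while 27.7% of all tested genes did not. The median log2 difference of the 9 members was 0.16 with stereotypy against control, 0.25 without stereotypy against control and 0.07 for stereotypy against no stereotypy, beside 0.05, 0.03 and 0.02 over all tested genes.

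Levels of different genes were compared per kb of annotated exon. In the controls Htr1b led at 20.0 ± 3.31 CPM per kb, followed by Htr2c at 8.42 ± 0.93, Htr6 at 6.20 ± 0.58 and Htr1d at 5.73 ± 1.27 (SD, n = 3). Htr2a followed at 2.04 and Htr5a at 1.22 CPM per kb, and Htr1f (0.433), Htr7 (0.267) and Htr4 (0.153) were lowest. Htr6 and Htr1d overlapped between libraries, as did Htr2a and Htr5a, Htr1f and Htr7, and Htr7 and Htr4. With stereotypy the order at the top was Htr1b (20.2 CPM per kb), Htr2c (9.48), Htr1d (8.38) and Htr6 (7.36), with overlap from Htr2c to Htr1d and from Htr1d to Htr6. Without stereotypy it was Htr1b (12.4 CPM per kb), Htr6 (8.69), Htr1d (7.84) and Htr2c (6.04), so that Htr2c moved from the second place to the fourth. That place depends on the length used. Htr2c has 9328 bp of exon over all transcripts and 4883 bp in its longest one, and with the latter it stood at 11.5 CPM per kb without stereotypy, 16.1 in the controls and 18.1 with stereotypy.

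**Figure D4:**
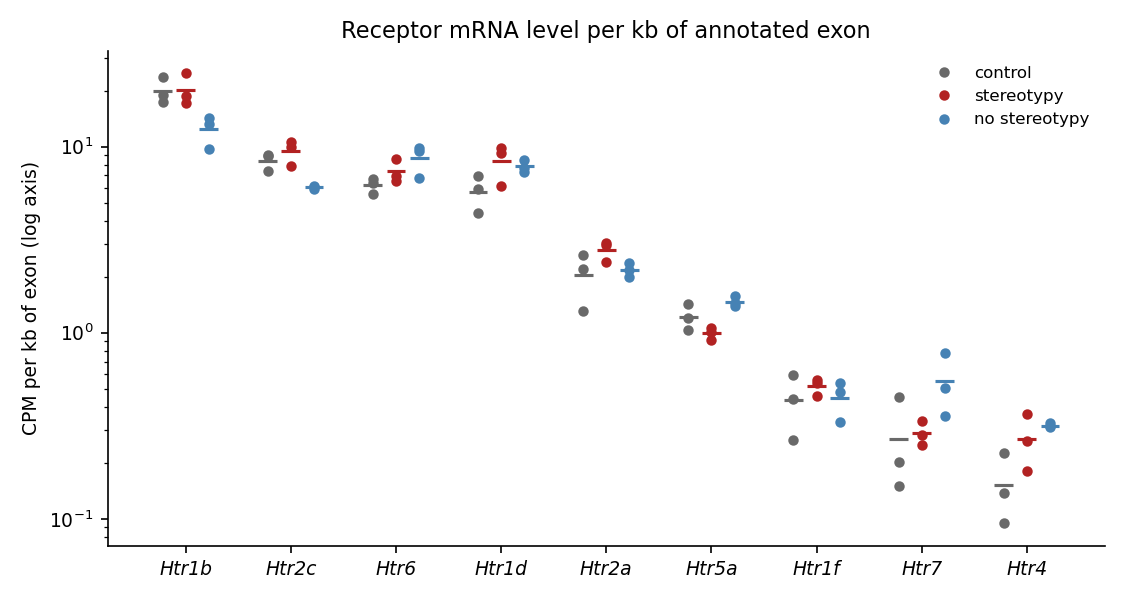
Level of each receptor gene in CPM per kb of annotated exon on a log axis, ordered by the control mean (points are libraries, horizontal lines are means of 3). Htr1b and Htr2c sit lower without stereotypy, and Htr6 and Htr1d lie above Htr2c in those libraries on this length.

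Summed over the 9 members, receptor mRNA was 44.4 ± 3.80 CPM per kb in the controls, 50.3 ± 3.25 with stereotypy and 39.9 ± 4.22 without (SD, n = 3). Htr1b and Htr2c made up 63.8 ± 4.27% of that sum in the controls, 58.9 ± 6.81% with stereotypy and 46.1 ± 1.10% without, and the libraries without stereotypy did not overlap either other group. The Gi/o-coupled members summed to 27.3, 30.1 and 22.2 CPM per kb in that order of groups and the Gq-coupled members to 10.5, 12.3 and 8.22 CPM per kb. The Gs-coupled members summed to 6.62, 7.92 and 9.55 CPM per kb, which was 14.9%, 15.7% and 23.8% of the family. The Gs share of every library without stereotypy lay above that of the other 6. With the length of the longest transcript the Gq-coupled sum was 18.1, 20.9 and 13.7 CPM per kb, the share of Htr1b and Htr2c 68.3%, 63.9% and 51.7%, and the Gs share 12.6%, 13.3% and 20.7%, and for both shares the libraries without stereotypy again did not overlap the others. These sums were formed after the single values had been seen and are given as a description.

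Some markers of the MSNs themselves differed in the same direction as Htr1b and Htr2c. Drd1 was called higher with stereotypy than without (log2 difference 0.57, SE 0.12, adjusted p = 0.0249 in limma), and its difference without stereotypy against control was -0.42 (adjusted p = 0.0646). The Drd1 call was lost without a filter, without stereotypy replicate 2 or 3 or without replicate 1 or 2 of the group without stereotypy (0.47 to 0.64 with each of the 9 libraries left out, adjusted p 0.0166 to 0.0994), and other-neuron markers as a covariate brought it to 0.26 (adjusted p = 0.181), where Htr1b stood at 0.69 and Htr2c at 0.67, neither of them called. Without stereotypy against control, Drd1 was called lower by DESeq2 (adjusted p = 0.0129). Limma called it after quantile normalization (0.0472), with the other-neuron covariate (0.044), without control replicate 3 (0.0249) and without replicate 3 of both groups (0.0328). In the other alternatives it was not called. Of 9 D1 MSN markers, 2 (Drd1 and Slc35d3) were called higher with stereotypy than without, beside 6.61% of all genes, and none lower. Against control limma called 0 of the 9 lower without stereotypy, with 6 at an unadjusted p under 0.05. In either direction, edgeR called 2 and DESeq2 called 4. Of 6 markers shared by MSNs that are reported here, 3 were called higher with stereotypy than without (6.61% of all genes), Bcl11b (0.39), Pde10a (0.47) and Foxp1 (0.58). Only Foxp1 of these 6 was called lower without stereotypy than in the controls (-0.52), beside 3.01% of all genes, and Ppp1r1b stood at -0.15 for stereotypy against no stereotypy (adjusted p = 0.626). The calls of Slc35d3 and Bcl11b were lost when any 1 of the 6 libraries compared was left out, and those of Pde10a and Foxp1 between the deleted groups without the 4 libraries that ended the Drd1 call. In precipitated RNA of a tissue, fewer cells of a type and less RNA per cell cannot be told apart.

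Set against Drd1 in the same library, Htr1b was 12.04 ± 3.75% in the controls, 10.7 ± 1.43% with stereotypy and 9.72 ± 0.75% without, and the groups overlapped (SD, n = 3, CPM over CPM). Htr2c was 9.93 ± 2.14%, 9.99 ± 1.67% and 9.52 ± 1.43% of Drd1 in the same order, also with overlap. The ratios of both genes to Foxp1 overlapped between all groups too. Htr6 was 1.83 ± 0.34%, 1.95 ± 0.38% and 3.37 ± 0.25% of Drd1, and Htr1d 2.26 ± 0.26%, 3.06 ± 0.88% and 4.22 ± 0.41%. For these receptors the libraries without stereotypy lay above all others. These ratios were chosen after the levels had been seen and show unequal change, not which gene changed.

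**Figure D5:**
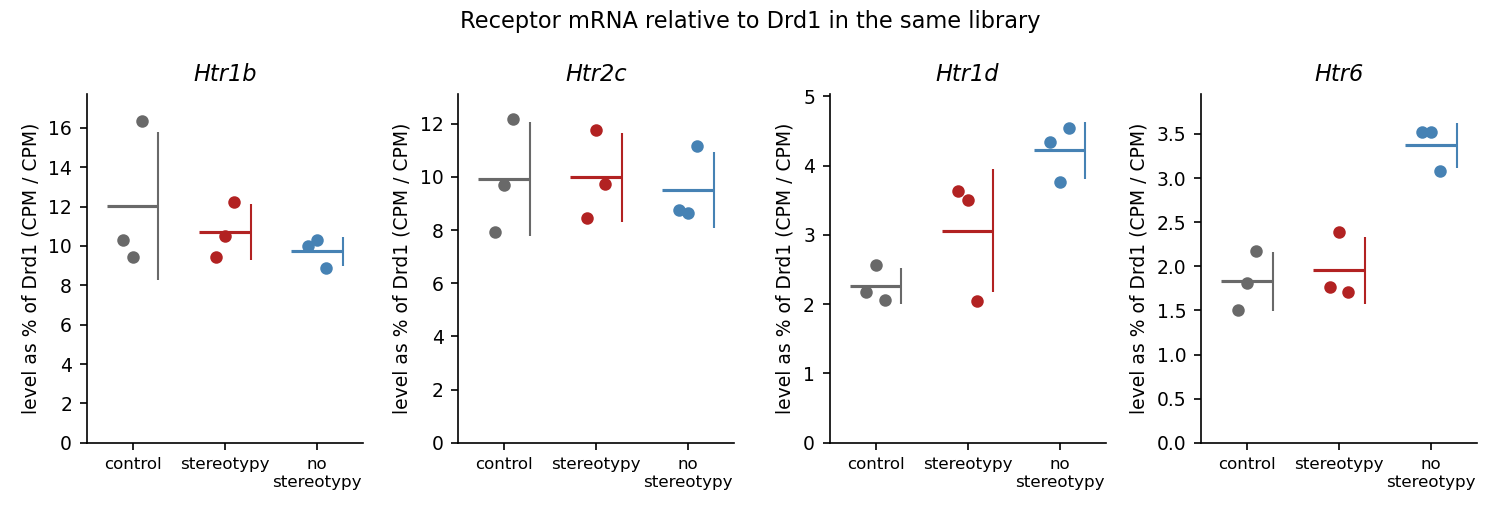
CPM of Htr1b, Htr2c, Htr1d and Htr6 as a percentage of Drd1 CPM in the same library, by group (points are libraries, horizontal lines are means of 3, vertical lines are 1 SD, each axis starts at 0). Htr1b and Htr2c overlap between groups, while Htr1d and Htr6 lie higher in the 3 libraries without stereotypy.

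The genes whose levels ran closest to the called receptors were found by the root mean square difference of centred log2 levels over the 9 libraries, among 9678 protein-coding genes with a mean of at least 5 CPM. For Htr1b these were Pdp1 (0.133), Ankrd13a (0.135) and Fancb (0.143), where the median gene stood at 0.443. For Htr2c they were Lrp6 (0.067), a Wnt co-receptor, Brwd3 (0.078) and Rybp (0.104), where the median stood at 0.357. Lrp6 stood at 52.4, 63.3 and 62.8 CPM in the controls, 55.4, 69.5 and 68.1 CPM with stereotypy and 45.4, 46.0 and 44.4 CPM without, so it was lowest in replicate 1 of both other groups, as Htr2c was.

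Of the 5 other serotonin receptor genes listed, Htr1a and Htr3a passed the filter and neither was called. Htr1a, a Gi/o-coupled receptor, stood at 4.49, 1.13 and 6.78 CPM in the controls, 3.87, 3.12 and 1.37 CPM with stereotypy and 3.64, 4.23 and 15.4 CPM without. Its highest library by far was replicate 3 without stereotypy, which also held the most cortical excitatory marker RNA (1426 CPM). Htr3a, a subunit of the serotonin-gated channel, ranged from 0.15 to 2.61 CPM and peaked in the same library. The part of other neurons in these levels was not tested. Htr2b, Htr3b and Htr5b stayed below 1 CPM in every library.

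Among 11 genes of serotonin synthesis, transport and breakdown, 5 were tested and Ddc, the decarboxylase shared by serotonin and dopamine synthesis, rose. Ddc was the 1 gene of these 5 that limma called against control. Over all genes 5.1% were called with stereotypy and 6.77% without. Ddc stood at 0.57, 1.33 and 1.07 CPM in the controls, 2.58, 4.02 and 2.91 CPM with stereotypy and 5.17, 5.04 and 5.03 CPM without. Every library of the deleted groups was above every control. The log2 difference was 1.07 with stereotypy (SE 0.19, adjusted p = 0.0134 in limma) and 1.63 without (SE 0.19, adjusted p = 0.00112). The call with stereotypy was lost without stereotypy replicate 2 (adjusted p = 0.0700), without a filter and with glial and vascular markers in the fit, over a range of 0.52 to 1.62 in all alternatives, and the call without stereotypy was kept in all of them. Maoa, which breaks down serotonin, was the most abundant tested member at 15.4 to 23.5 CPM and was not called. Tph2, the rate-limiting enzyme of serotonin synthesis in neurons, and Slc6a4, the serotonin transporter, were below 1 CPM in every library, as were Tph1, Slc18a1, Slc18a2 and Slc22a2.

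Counts for the signalling lists below stand against 6.77% of all genes called without stereotypy against control (3.01% lower) and 10.2% between the deleted groups (6.61% higher), and 1 called gene in a list of 9 to 14 is near those shares. Of 9 genes of inhibitory G proteins and GIRK channels, 1 was called higher without stereotypy than in the controls and 2 were called lower with stereotypy than without. Kcnj9, a GIRK subunit, stood at 87.9 to 105 CPM in control libraries, 77.5 to 99.8 CPM with stereotypy and 132 to 168 CPM without (log2 difference 0.59 without stereotypy against control, adjusted p = 0.0186, and -0.68 for stereotypy against no stereotypy, adjusted p = 0.0206 in limma). Kcnj6, another subunit, was lower with stereotypy (1.18 to 1.29 CPM) than without (3.28 to 6.28 CPM), a log2 difference of -1.22 (adjusted p = 0.0331), and it was highest in the replicates 3 with the most other-neuron marker RNA. Gnao1, the most abundant of the list, was not called.

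Of 10 genes of stimulatory G proteins and adenylyl cyclases, 1 was called in each of the same comparisons. Adcy1 stood at 196 to 328 CPM in the controls and 401 to 516 CPM without stereotypy (log2 difference 0.95, adjusted p = 0.0191 in limma). Adcy2 stood at 10.8 to 15.4 CPM with stereotypy and 30.6 to 59.4 CPM without (-1.46, adjusted p = 0.0289). Both genes were highest in replicate 3 of their group among the controls and among the libraries without stereotypy, where other-neuron markers were also highest. Adcy5, the main striatal cyclase, stood at 2007 to 2810 CPM and was not called.

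In the Gq arm 9 genes were tested. Without stereotypy against control 2 were called lower, and 1 was called higher with stereotypy than without. Prkcb, a protein kinase C, fell in both deleted groups. Controls held 1265 to 1465 CPM, stereotypy libraries 740 to 821 CPM (log2 difference -0.75, adjusted p = 0.00357 in limma) and libraries without stereotypy 664 to 780 CPM (-0.87, adjusted p = 0.00104). Plcb1, a phospholipase C beta, followed the order of Htr2c. It stood at 593 to 692 CPM in control libraries, 624 to 702 CPM with stereotypy and 468 to 511 CPM without (-0.41 without stereotypy against control, adjusted p = 0.0209, and 0.44 for stereotypy against no stereotypy, adjusted p = 0.0231). Itpr1, the most abundant of the arm, was not called.

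Of 15 receptor partners, kinases and arrestins, 14 were tested and 1 was called. Grk2, a kinase that desensitizes receptors, stood at 101 to 133 CPM in control libraries, 107 to 125 CPM with stereotypy and 165 to 174 CPM without (log2 difference 0.50 without stereotypy against control, adjusted p = 0.0216, and -0.55 for stereotypy against no stereotypy, adjusted p = 0.0225 in limma). In the list of 3 genes of the RNA editing enzyme family, Adarb1 encodes an enzyme that deaminates Htr2c RNA. Adarb1 rose without stereotypy from 127 to 163 CPM in the controls to 198 to 219 CPM (0.56, adjusted p = 0.00885 in limma). It also rose in both deleted groups combined (0.41, adjusted p = 0.0195). Editing itself cannot be read from gene levels. With stereotypy against control, limma and edgeR called 0 genes of the Gi, Gs, partner and editing lists, with 0, 1, 2 and 2 genes at an unadjusted p under 0.05 in limma, and DESeq2 called 2 of the partner list, 1 of them Dlg4.

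Several of these calls rested on single libraries. Without stereotypy against control, the Grk2 call was lost without control replicate 1 or any library without stereotypy (0.38 to 0.58 over the 9 libraries, adjusted p up to 0.0848), that of Plcb1 without replicate 1 of either group (adjusted p up to 0.0904), that of Adcy1 without control replicate 1 or replicate 2 or 3 of the group without stereotypy (up to 0.0748) and that of Kcnj9 without control replicate 1 (0.0639). Without a filter on low levels all 4 were lost. Those of Grk2 and Plcb1 were also lost with glial and vascular markers in the fit and in a fit to the groups compared only. That of Plcb1 was lost without replicate 3 of both groups as well. The calls of Prkcb and Adarb1 in that comparison were kept in every alternative. For stereotypy against no stereotypy, Kcnj9, Plcb1 and Grk2 lost their calls without the same 4 libraries as Htr2c, and Kcnj6 and Adcy2 when any 1 of the 6 libraries compared was left out. Other-neuron markers as a covariate ended all 5 of these calls, and brought Kcnj6 to -0.37 and Adcy2 to -0.41. The Adarb1 call over both deleted groups was lost without control replicate 1 or 2 or stereotypy replicate 2 (adjusted p up to 0.0770) and under the glial and vascular covariate (adjusted p = 0.408). That covariate also ended the Prkcb call with stereotypy (adjusted p = 0.297).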

How the data were processed

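RNA-seq levels of 9 RiboTag libraries in 3 groups of 3 were used. The authors deposited 1 table per library in CPM. TopHat and the build GRCm38 are named in the submitters' processing notes; the counter, its annotation and its strand setting are not stated in any source used here. Of the values, 100.0% per library were whole multiples of 1 read within 0.1 reads, so whole reads were recovered. A count of 0 allows up to 0.0739 to 0.111 CPM (3 reads per library, counting error only). The libraries of a group correlated at 0.980 to 0.995 (Pearson, log2 levels across genes), and chi-square over degrees of freedom was at least 12.3 for every pair, so each counted once.

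Symbols, exon lengths and positions came from GENCODE M21, which matched 47310 of 47729 identifiers (99.12%; the rest held at most 0.0632% of reads). Promoter windows came from RefSeq (GRCm38.p6), which listed 8 of the 9 members.

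The tests used limma 3.58.1 (R 4.3.3) on log2(CPM + 1), with a variance trend, 1 mean per group, all 9 libraries in 1 fit with 6 residual degrees of freedom, and Benjamini-Hochberg adjustment over the 13695 genes that reached 1 CPM in 3 or more libraries. The procedure was tested on simulated reads. These were drawn gene by gene, without the marker differences between libraries, so that test does not bear on such differences. Alternatives were quantile normalization, pseudocounts of 0.25 and 4, a filter on a mean of 5 CPM or none, rescaling by median of ratios, a replicate block, covariates of glial and vascular or of other-neuron markers, fits to the groups compared only, each library left out, and edgeR 4.0.16 and DESeq2 1.42.0 on the recovered reads. Leaving out replicate 3 of the control group and of the group without stereotypy together was chosen after seeing the data.

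The receptor genes and the gene lists were chosen with earlier results of these data known. All 9 receptors, the other listed receptors, Ntrk2, called members of each pathway list (all if 4 or fewer), the most abundant tested member of each list and the 3 genes closest to each called receptor are named by rule. Drd1 ratios, D430036J16Rik, Slc35d3 and the other MSN markers, Ttr and members below the filter were named after their values were seen. Some genes of these lists are not reported here.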

Additional observations from a re-analysis of the deposited data

Results flagged for a closer look

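The deleted groups, with and without stereotypy, share their genotype and their controls, and their effects against control differed by the test of the difference itself (limma, adjusted over all tested genes) for 19 of the genes named here. Over all tested genes 10.2% were called in this comparison. Several of the 19 were named because they were called, after their values were seen or for likeness to a called receptor. Their count therefore cannot be set against that share. In groups of 3 no test for a single deviating library was made.

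The log2 difference of stereotypy minus no stereotypy was 0.70 for Htr1b and 0.63 for Htr2c, against 0.57 for Drd1 and 1.05 for Ntrk2, the targeted gene. In the same direction were the MSN markers Slc35d3 (0.65), Bcl11b (0.39), Pde10a (0.47) and Foxp1 (0.58), chosen after their values were seen, Plcb1 (0.44) and the astrocyte marker Slc4a4 (0.64), as well as Ankrd13a (0.54) and Fancb (0.76), picked for likeness to Htr1b, and Lrp6 (0.49) and Rybp (0.58), picked for likeness to Htr2c, whose direction follows from that choice. The opposite direction was seen for Kcnj9 (-0.68), Kcnj6 (-1.22), Adcy2 (-1.46), Grk2 (-0.55) and the cortical excitatory marker Slc17a7 (-1.93).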

How the results depend on the processing

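The 4 receptor calls kept their sign in every alternative, but each of these 4 lost its call in at least 1 of them. Of 36 receptor results (9 genes in 4 comparisons), 29 kept their side of the threshold in all alternatives, and all 29 were results without a call. Over all genes, 699 were called with stereotypy against control, 927 without it against control, 1398 between the deleted groups and 784 with these combined against control. Without a filter on low levels these counts were, in that order, 330, 484, 572 and 392. DESeq2 called 1522, 1509, 2343 and 1326, and a covariate of glial and vascular markers gave 8, 518, 223 and 54. With other-neuron markers as a covariate 0 were called for stereotypy against no stereotypy and 1299 for both groups. Both covariates separated the deleted groups without overlap, so counts between these groups under either cannot tell marker level from group. Fits to the groups compared called 326 with stereotypy and 568 without against control. Leaving out 1 library gave 124 to 805, 317 to 935, 0 to 1982 and 403 to 732. The share of calls that were higher with stereotypy against control was 70.1%, and 52.9% after median-of-ratios rescaling; for both groups it was 64.2% and 52.0%.

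Of the receptors called without stereotypy against control (2), 0 stayed called without a filter, under the glial and vascular covariate, in a fit to the groups compared, and without replicate 3 of both groups (Htr1b -0.39, adjusted p = 0.176; Htr2c -0.44, adjusted p = 0.124), and 0 to 1 with 1 library left out. For stereotypy against no stereotypy 1 receptor was called without a filter, 0 with either covariate and 0 to 3 with 1 library left out. With both groups against control 0 to 1 was called with 1 library left out. Whether replicate numbers pair animals is not stated in the labels. Of 9 same-numbered pairs, 4 had correlated deviations over 0.1 (-0.080 to 0.406), and 3 libraries correlated best with their own number. With 3 libraries per group these values cannot decide it. A replicate block called 1 receptor without stereotypy against control (Htr1b lost, adjusted p = 0.0590) and 1, Htr1d, for both groups (adjusted p = 0.0411), and also called Htr5a for stereotypy against no stereotypy (adjusted p = 0.0463) beside Htr1b and Htr2c. The cause of these changes was not tested. Depth limits Htr1f, Htr4 and Htr7, with as few as 17 reads.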
